A study of Drosophila melanogaster with 72 samples.

Results

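takeout (to), Slob, Lk6 and Ugt35b are genes whose RNA is known to follow the circadian clock in the fly, and they are described here as a set of clock output genes. They were taken by name, and all 4 were found among the 15240 genes of the deposited table. Where a gene had several transcripts, the one with the highest average FPKM stood for it. FPKM counts fragments relative to transcript length and library size, so its levels can be compared between genes. The 4 genes lie in different families and share no target or sequence by design.

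All flies were Oregon R males, a wild-type laboratory strain, raised at 25C. ALF flies had food at all times, and TRF flies were moved between food and a medium of agar and water. The hours of food access and the number of flies per library are not given in the sources used here. Heads and peripheries (the fly body with its head removed) were taken at 3, 5 and 7 weeks of age and hearts at 5 weeks, at ZT00, ZT06, ZT12 and ZT18, and heads and peripheries of week 5 also at ZT03, ZT09, ZT15 and ZT21. Zeitgeber time (ZT) counts hours from the start of the daily cycle. Only 1 library was made per tissue, week, ZT and feeding group, so the libraries of several times stand in for replicates. The p-values set fitted differences against the scatter left between these libraries, which also holds any departure from the fitted pattern.

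In the Drosophila clock, CLOCK and CYCLE switch on per and tim, whose proteins later shut off their own transcription. A second loop through vri and Pdp1 turns Clk on and off at the opposite time of day. Output genes carry this timing to other processes, some in step with per and tim and some in step with Clk. Slob binds the calcium-activated potassium channel Slowpoke and alters its gating, and Ugt35b is a UDP-glycosyltransferase, an enzyme class that attaches sugars to small lipophilic compounds such as toxins and odorants. takeout is a secreted protein of a family related to juvenile hormone binding proteins, with known roles in feeding and male courtship and a known response to starvation. Lk6 is the fly homologue of the MNK kinases, which phosphorylate the translation initiation factor eIF4E.

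In the dm3 coordinates of the deposited table, takeout lies on the plus strand of chromosome 3R at 21065902 to 21067175, between the related genes CG11852 (1285 bases away) and CG11854 (567 bases away). Ugt35b lies on the minus strand of 3R at 6994225 to 6995968, with the related genes Ugt86De 522 bases and Ugt35a 571 bases away. The chosen Lk6 transcript spans 7578506 to 7585800 on the minus strand of 3R. The chosen Slob transcript spans 7647053 to 7659567 on the minus strand of chromosome 2L and is 1 of 11 Slob transcripts in the table. Longer Slob transcripts overlap Myo28B1 on the opposite strand, where unstranded libraries cannot tell the genes apart, and the chosen one does not.

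Of 72 libraries, 60 were used. In 6 libraries labelled head, the photoreceptor rhodopsin gene ninaE was below 1000 FPKM, and in 6 labelled periphery it was above 1000 FPKM, and these 12 were left out. In the libraries kept, ninaE was at 9856 to 27051 FPKM in heads and at most 0.633 FPKM in peripheries, and the heart gene Hand was at 721 to 1779 FPKM in hearts. The dropped heads were those of ZT06 in both feeding groups and of TRF at ZT09 at week 5, and those of ZT12 in both groups and of TRF at ZT18 at week 7. The dropped peripheries, at weeks 3 and 7 alike, were those of ZT00 in both groups and of TRF at ZT06. Depth, recovered from the steps of low FPKM values, was 0.210 to 18.6 M reads in heads, 2.78 to 21.7 M in peripheries and 7.78 to 23.7 M in hearts. Among the kept week 5 heads, the ALF ZT15 library stood apart. Fitted differences, amplitudes and correlations printed for the 4 genes that changed by more than 1.5 times or in direction without it are also given without it. Clk was listed at 0 there, and Lk6 was at 62.8 FPKM against 337 to 541 FPKM in the other week 5 heads.

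Slob RNA was abundant in heads and scarce in the other tissues. Over the 26 kept heads Slob ranged from 83.2 FPKM through a median of 137 to 260 FPKM. In the 26 kept peripheries the lowest, median and highest levels were 0.338, 0.755 and 1.12 FPKM, and in the 8 hearts 0.467, 1.13 and 1.99 FPKM. No head library overlapped a library of the other tissues, and 5 to 46 reads lay behind each periphery value. At week 5 the head exceeded the periphery by 6.47 ± 0.17 (SE) on the log2(FPKM + 1) scale (limma, adjusted p = 3.35e-14), an 88.8-fold ratio of FPKM + 1. The test called 75.5% of 12185 genes different between these tissues and 33.5% higher in the head, so a call alone was common, and Slob ranked 235 by p. Of the called genes 44.4% were higher in the head, and 65.6% after quantile scaling, under which Slob stayed called.

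The other output genes were shared by head and periphery. takeout had a median of 36.6 FPKM over heads and 41.0 FPKM over peripheries, and the difference at week 5 was -0.49 ± 0.53 (log2, 95% interval -1.62 to 0.64, adjusted p = 0.41). Ugt35b differed by -0.23 ± 0.55 (95% interval -1.40 to 0.94, adjusted p = 0.71). Lk6, the most abundant of the 4, had medians of 399 and 341 FPKM and differed by 0.29 ± 0.14 (95% interval 0.0029 to 0.58, adjusted p = 0.063). In heads, the order of the median levels was Lk6, Slob, then Ugt35b and takeout, whose ranges overlapped (12.5 to 148 and 15.1 to 170 FPKM). In peripheries the order was Lk6, then Ugt35b and takeout, again with overlapping ranges, then Slob.

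**Figure D1:**
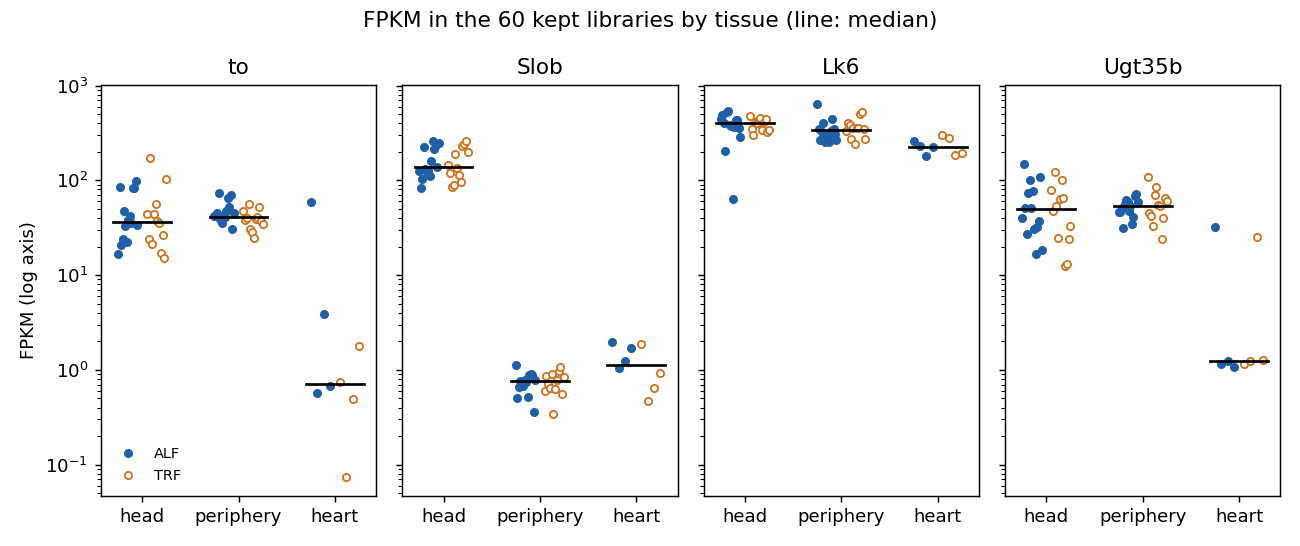
Each point is the FPKM level (log axis) of a gene in 1 of the 60 kept libraries, filled for ALF and open for TRF, and the lines are medians by tissue. Slob is at 83.2 to 260 FPKM in heads and below 2 FPKM in all peripheries and hearts, Lk6 is high in every tissue, and hearts are low in takeout in all but 1 library and in Ugt35b in all but 2.

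Hearts held little takeout and Ugt35b RNA. takeout was at 59.6 FPKM in the ALF ZT00 heart and at 0.572, 3.93 and 0.676 FPKM in the ALF hearts of ZT06, ZT12 and ZT18. In TRF hearts it was at 0.747, 0.074, 0.489 and 1.78 FPKM at ZT00, ZT06, ZT12 and ZT18. Thus 1 heart reached the head range, and the other 7 were below every head and periphery library. Ugt35b was at 32.04 FPKM in the ALF ZT00 heart, at 25.2 FPKM in the TRF ZT12 heart and at 1.07 to 1.26 FPKM in the other 6. Both of these hearts overlapped the head and periphery ranges of Ugt35b and the other 6 did not.

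The same 2 hearts held transcripts of the Malpighian tubule, the fly's excretory organ. Of 8 tubule markers 6 were in the table, and their summed level was 348 FPKM in the ALF ZT00 heart and 192 FPKM in the TRF ZT12 heart, against 1.11 to 7.17 FPKM in the other 6. The urate oxidase gene Uro was at 162 and 101 FPKM in these 2 and at 0.322 to 1.35 FPKM in the rest. The marker Lkr was at 1.44 FPKM in the ALF ZT00 heart. In the TRF ZT12 heart it was at 0.207 FPKM, within the range of the rest (up to 0.254 FPKM). The tubule list was written after the values had been seen, and its part in the Ugt35b and takeout levels of these hearts was not tested. Accessory gland markers were also highest in the TRF ZT12 heart. Acp62F was at 48.9 FPKM there, against 0.798 to 3.78 FPKM in the other hearts. Acp70A was at 48.6 FPKM, against 1.04 to 17.7 FPKM. Testis markers were highest in the ALF ZT18 heart (Mst87F at 142 FPKM). Summed photoreceptor markers were at 47.3 to 185 FPKM in hearts, against 28121 to 50032 FPKM in heads.

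Against the periphery of week 5, hearts were lower in takeout (-3.84 ± 0.47 on the log2 scale, adjusted p = 1.85e-06) and in Ugt35b (-3.40 ± 0.49, adjusted p = 1.01e-05). Without the 2 hearts that held tubule markers the differences were -4.32 (adjusted p = 4.66e-09) and -4.17 (adjusted p = 4.38e-08). Lk6 was at 183 to 298 FPKM in hearts and fell by 0.57 ± 0.12 (adjusted p = 0.00046), while the median of all genes tested was -0.59 and 82.3% of them were called. Of those called 20.8% were higher in the heart, 39.5% after median-of-ratios and 64.4% after quantile scaling. With libraries rescaled by the median of ratios the Lk6 difference was -0.07 (adjusted p = 0.60). Against the head, all 4 genes were lower in the heart, where 77.4% of genes were called, with Slob at -6.19 ± 0.17 and Lk6 at -0.87 ± 0.14. The share of these calls higher in the heart was 38.9%, and 58.5% and 55.6% after the same scalings, under which all 4 genes stayed called and lower, Lk6 at -0.31 (adjusted p = 0.048) and -1.02. In whole tissues, fewer cells that hold an RNA and less of it per cell cannot be told apart.

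In heads of week 5, Slob and Ugt35b were near their highest levels at opposite times of day. A 24 h rhythm was fitted as a cosine and a sine term over both feeding groups, which gives an amplitude (from the mean to the peak, on the log2 scale) and a time of peak. Of 9879 genes tested this way in heads, 0 passed an adjusted p of 0.05 (0%) and 672 had an unadjusted p below 0.05 (1 passed without the ALF ZT15 head), so none of the 4 genes, and none of the core clock genes, was called rhythmic there. The values that follow describe these libraries, and the times set apart in them were picked with the values known.

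Slob, in the 7 ALF heads, was lowest at ZT12 (111 FPKM), had a median of 133 FPKM and was highest at ZT18 (260 FPKM). In the 6 TRF heads the lowest, median and highest levels were 97.0 FPKM at ZT15, 162 FPKM and 244 FPKM at ZT21. In both feeding groups the libraries of ZT18 and ZT21 were the highest and overlapped no library of ZT03 to ZT15. The fitted amplitude was 0.59 ± 0.15 (SE), a 2.28-fold ratio of peak to trough, with a peak at ZT20.2 ± 0.79 h (unadjusted p = 0.0060, adjusted p = 0.65, rank 82 of 9879). The adjusted p was 0.25 without the ALF ZT15 head, where the amplitude was also 0.59. Across the 11 Slob transcripts the amplitude was 0.40 to 0.60 and the peak lay between ZT19.8 and ZT20.8.

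Ugt35b ran the other way. In ALF heads it was lowest at ZT18 (16.7 FPKM), had a median of 51.2 FPKM and was highest at ZT03 (101 FPKM). In TRF heads it was lowest at ZT18 (12.5 FPKM), had a median of 43.8 FPKM and was highest at ZT12 (99.6 FPKM). The libraries of ZT18 and ZT21 were below those of ZT03 to ZT12 in both groups. The amplitude was 1.25 ± 0.31, a 5.65-fold ratio of peak to trough, with a fitted peak at ZT7.32 ± 0.76 h (unadjusted p = 0.0067, adjusted p = 0.65, rank 92). The adjusted p was 0.28 without the ALF ZT15 head. Between ZT03 and ZT12 only the ALF ZT09 head was kept.

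takeout and Lk6 showed less of a shared pattern in heads. takeout had an amplitude of 0.25 ± 0.20 (adjusted p = 0.87). Its highest week 5 head was ALF ZT21 at 83.8 FPKM, where the TRF head was at 26.8 FPKM. Lk6 had an amplitude of 0.52 ± 0.27 and a peak at ZT3.11 (adjusted p = 0.87), and without the ALF ZT15 head the amplitude was 0.17 (adjusted p = 0.42).

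**Figure D2:**
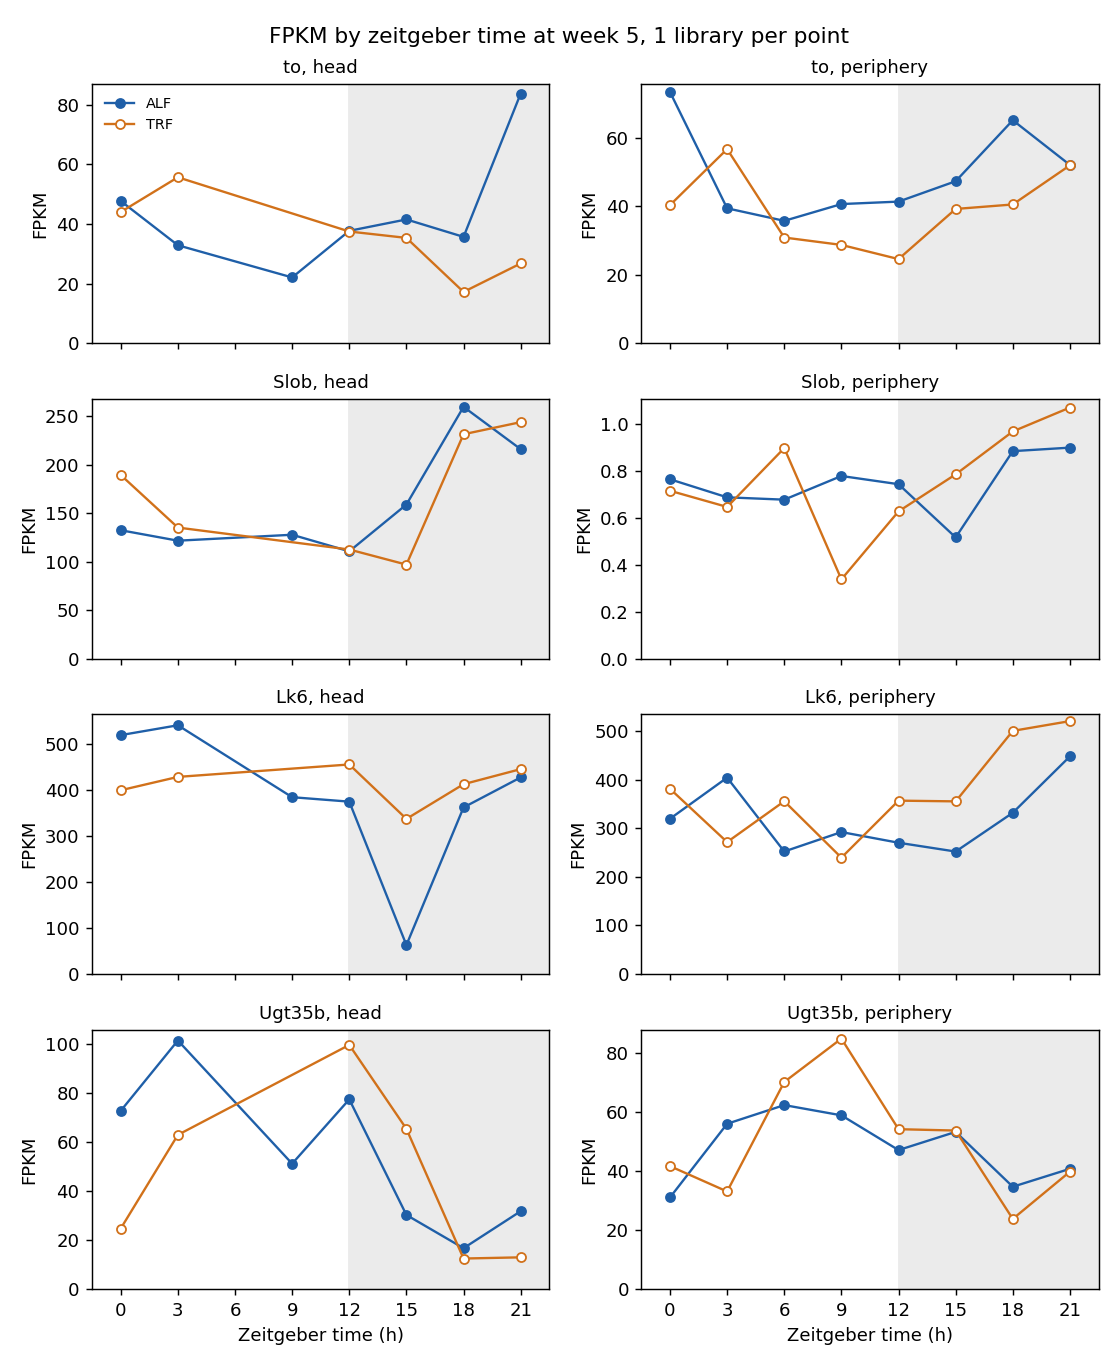
FPKM by zeitgeber time (h) at week 5 in heads (left) and peripheries (right), 1 library per point, with ALF filled and TRF open, and ZT12 onwards shaded. Slob in heads is highest at ZT18 and ZT21 and Ugt35b is lowest there in both feeding groups, while in peripheries Slob stays at or below 1.07 FPKM.

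In peripheries of week 5 the fitted peak of takeout lay late in the cycle and that of Ugt35b between ZT06 and ZT12. Of 12001 genes tested over the 16 libraries of week 5, 30 were called rhythmic (0.25%) and 3178 had an unadjusted p below 0.05. None of the 3 output genes that passed the filter was among the 30 called. takeout was lowest at 35.7 FPKM (ZT06), had a median of 44.3 FPKM and was highest at 73.3 FPKM (ZT00) in ALF peripheries. In TRF peripheries it was lowest at 24.6 FPKM (ZT12), had a median of 39.8 FPKM and was highest at 56.7 FPKM (ZT03). The lowest library was thus at ZT06 or ZT12, and the highest at ZT00 or ZT03. The amplitude was 0.39 ± 0.09, a 1.73-fold ratio, with a peak at ZT21.6 ± 0.83 h (unadjusted p = 0.0013, adjusted p = 0.073).

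Ugt35b in ALF peripheries was lowest at 31.1 FPKM (ZT00), had a median of 50.3 FPKM and was highest at 62.5 FPKM (ZT06). In TRF peripheries it was lowest at 23.9 FPKM (ZT18), had a median of 47.8 FPKM and was highest at 85.0 FPKM (ZT09). Its 4 libraries of ZT06 and ZT09, at 59.0 to 85.0 FPKM, exceeded all 12 others. These times were picked with the values known, and the share of all genes set apart in this way is not given. The amplitude was 0.49 ± 0.11, a 1.98-fold ratio, with a peak at ZT8.64 ± 0.83 h (unadjusted p = 0.0013, adjusted p = 0.073). Lk6, at 240 to 521 FPKM, had an amplitude of 0.32 ± 0.09 and a peak at ZT20.9 ± 1.02 h (adjusted p = 0.10). Over the alternatives tried, the adjusted p of these 3 peripheral rhythms stayed between 0.062 and 0.32.

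The rhythms of the core clock genes in the same libraries give a scale for these amplitudes. In heads tim had an amplitude of 1.92, per 1.31, vri 1.48 and Pdp1 0.96, with peaks between ZT20.2 and ZT21.5, and Clk (1.56) and cry (0.90) peaked at ZT7.02 and ZT8.80. The Slob peak fell in the first of these windows and the Ugt35b peak in the second. Over the 13 core clock genes tested in heads the median amplitude was 0.43, against 0.18 over all genes tested. In peripheries tim was the 1 core clock gene of 13 called (amplitude 1.70 ± 0.22, peak ZT20.8, adjusted p = 0.015), and the list's median was 0.19 against 0.12 over all genes.

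**Figure D3:**
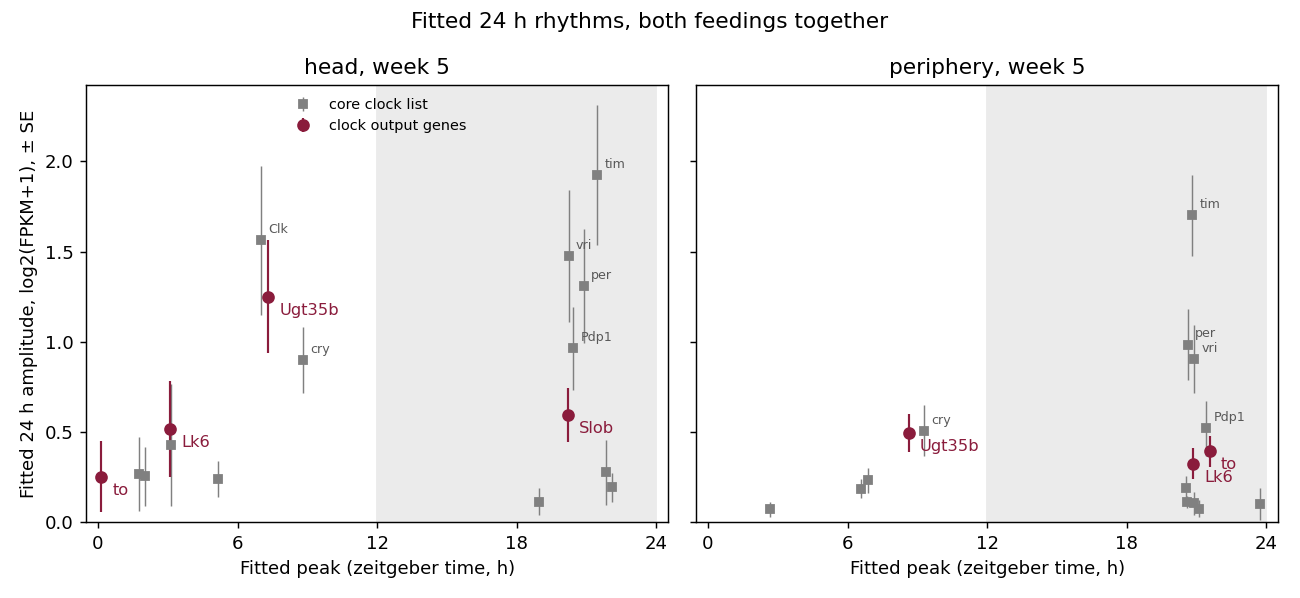
Fitted peak time (h) against fitted 24 h amplitude (log2, bars are SE) at week 5 over both feeding groups, for the output genes (circles) and the core clock list (squares), with ZT12 to ZT24 shaded. Slob lies near vri, per and Pdp1 in time and Ugt35b near Clk and cry in heads, and in peripheries takeout and Lk6 lie in the tim window at lower amplitude.

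Other genes listed as head clock outputs were measured in the same libraries. Of 20 listed, 16 were in the table and 0 were called in heads, with a median amplitude of 0.42 against 0.18 over all genes. Of the 15 tested in peripheries 0 were called, with a median of 0.17 against 0.12.

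Relatives of takeout and Ugt35b were tested for rhythm in the same fits, which called 0% of all genes in heads and 0.25% in peripheries. Of the takeout family, 22 genes were in the table and 15 were tested for rhythm in heads, with a median amplitude of 0.28 and 0 called. In peripheries 1 of 20 was called, CG5867, with an amplitude of 0.40 ± 0.06 and a peak at ZT7.19 (adjusted p = 0.029). Next to takeout itself, CG11852 had an amplitude of 0.10 and CG11854 of 0.13 in peripheries, neither called. Of the UDP-glycosyltransferases, 17 of 18 were in the table, and 0 of 8 in heads and 0 of 10 in peripheries were called. Ugt35a, the neighbour of Ugt35b on the same strand, had an amplitude of 0.21 and a peak at ZT5.41 in heads (adjusted p = 0.85).

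The genes most like each output gene were ranked by Pearson correlation of log2(FPKM + 1) over the 13 kept heads of week 5. These libraries share their ZT, feeding and depth across genes, so the correlations are descriptions. Slob was most like vri, Pdp1 and Ubpy (0.98 each). per stood at rank 4 (0.95) and tim at rank 8 (0.91), and Ugt35b was among the least like Slob (-0.92). Ugt35b was most like Pdh (0.97), GstZ2 and Mppe (0.93 each), and its correlation with Clk was 0.76. Pdh, on the list of other head outputs, had an amplitude of 0.62 and a peak at ZT7.51.

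takeout in heads was most like CG7149 (0.86), gk (0.85) and Lectin-galC1 (0.82), and its correlations with per and tim were -0.0071 and 0.17. Without the ALF ZT15 head its correlation with per was 0.011. Lk6 was most like Smg5, crp and CG7766 (0.99 each), and without the ALF ZT15 head these stood at ranks 13, 15 and 19 (0.90, 0.89 and 0.89), behind mnb (0.93), CG11880 and drpr (0.92 each). Without it Slob kept vri, Pdp1 and Ubpy as its first 3 (0.99 each), Pdh and GstZ2 stood at ranks 2 and 3 for Ugt35b behind CG42329 (0.97), and CG7149 at rank 3 for takeout behind CG7582 and CG13003 (0.90 and 0.89). The correlation of Clk with Ugt35b was then 0.90. Over the 16 peripheries of week 5, takeout was most like CG42237 (0.88), CG3868 (0.85) and CG6136 (0.84), with tim at rank 5 and per at rank 7 (0.80 each). Ugt35b in peripheries was most like CG17028, ldlCp and CG1143 (0.89 each) and had correlations of -0.92 with per and -0.85 with tim. Lk6 there was most like crm (0.97), CG8740 (0.95) and Marf (0.95).

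Feeding was compared within each week by pairing the ALF and TRF libraries of the same ZT. None of the 4 genes passed in any tissue or week. At weeks 3 and 7 the clock gene tim ran in opposite directions in the paired libraries, so these pairs rest on ZT labels that were not tested. In heads of week 7 tim was at 267 and 86.6 FPKM at ZT00 and ZT06 under ALF and at 156 and 224 FPKM under TRF. In peripheries it was at 18.4 and 92.5 FPKM at ZT12 and ZT18 of week 3 under ALF and at 63.8 and 21.7 FPKM under TRF. At week 7 the values were 19.8 and 93.5 FPKM under ALF and 52.0 and 21.8 FPKM under TRF. In heads 0 of 9879 genes were called at each week (0%), with 750, 140 and 310 genes at an unadjusted p below 0.05 at weeks 3, 5 and 7. In peripheries 0 of 12001 (0%) were called at weeks 3 and 5 and 20 (0.167%) at week 7, and in hearts 0 of 9726 (0%).

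The intervals bound what these pairs could show. In the periphery of week 5, where 8 pairs were complete, takeout was lower under TRF in 7 of 8 pairs, with a mean difference of -0.34 ± 0.14 (95% interval -0.63 to -0.04, unadjusted p = 0.030, adjusted p = 0.87). Lk6 was higher under TRF in 6 of 8 pairs by 0.20 ± 0.13 (95% interval -0.08 to 0.48), and Ugt35b differed by 0.0011 ± 0.16 (95% interval -0.34 to 0.35). In the 6 complete pairs of week 5 heads, Slob differed by -0.0017 ± 0.21 (95% interval -0.46 to 0.46). takeout was lower under TRF in 5 of 6 of these pairs (-0.37 ± 0.50, 95% interval -1.45 to 0.71), and Ugt35b in 4 of 6 (-0.40 ± 0.38, 95% interval -1.22 to 0.43). Without the ALF ZT15 head, Ugt35b differed by -0.69, Slob by 0.14 and Lk6 by -0.037, in place of 0.37 ± 0.31 for Lk6 with it (adjusted p = 1.0 for each without it).

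**Figure D4:**
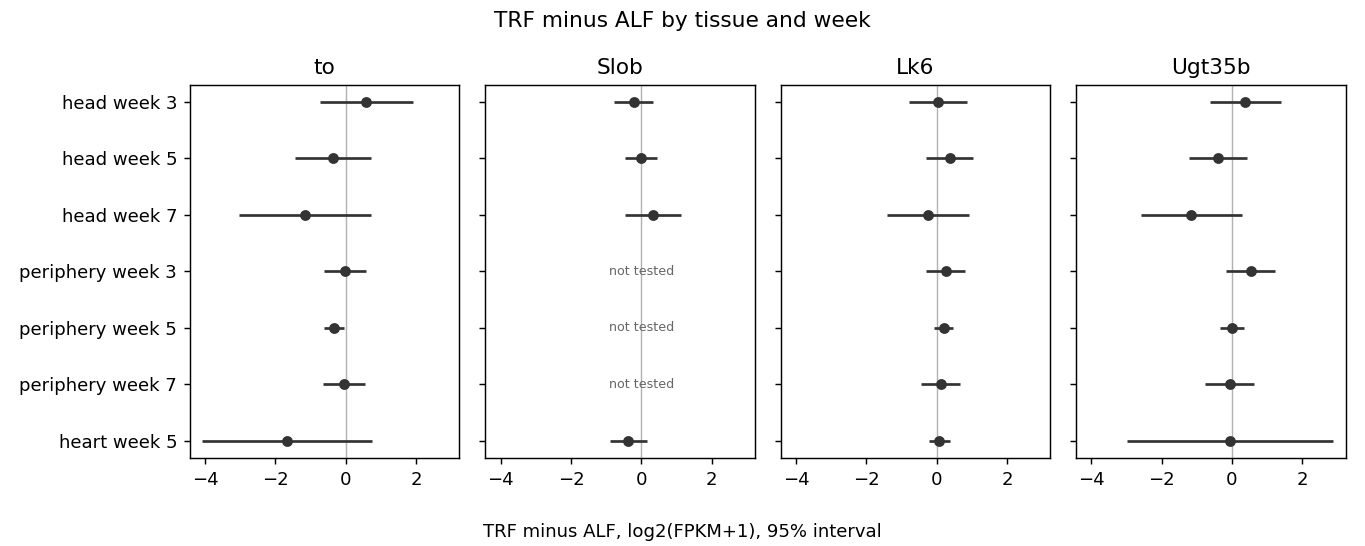
TRF minus ALF on the log2(FPKM + 1) scale for each gene by tissue and week, with 95% intervals from limma over paired ZTs. All intervals but that of takeout in the periphery of week 5 (-0.63 to -0.04) include 0, none passed adjustment over all genes, and Slob was too low to test in peripheries.

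Feeding was also compared at ZT15, ZT18 and ZT21 alone. For takeout in heads of week 5, the 1 pair with TRF higher was that of ZT03 (0.74 on the log2 scale). At ZT15, ZT18 and ZT21 takeout was at 41.6, 35.7 and 83.8 FPKM in ALF heads. TRF heads were at 35.4, 17.2 and 26.8 FPKM, lower in all 3 pairs. The difference was -0.95 ± 0.29 (unadjusted p = 0.019, adjusted p = 0.63), where 270 of 9879 genes had an unadjusted p below 0.05 and 0 were called (0%). In peripheries Lk6 at these times was at 252, 332 and 449 FPKM in ALF and 356, 501 and 521 FPKM in TRF, a difference of 0.43 ± 0.19 (adjusted p = 0.66). The Lk6 difference at these times exceeded that at ZT03, ZT06 and ZT09 by 0.56 ± 0.26 (unadjusted p = 0.067, adjusted p = 0.71).

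Timing was also compared between the feeding groups of week 5. In heads the fitted peak of Slob was at ZT18.9 ± 1.06 h in ALF and ZT21.1 ± 0.89 h in TRF. That of Ugt35b was at ZT5.44 ± 0.82 h in ALF and ZT8.48 ± 0.49 h in TRF. That of takeout was at ZT20.4 ± 1.23 h in ALF and ZT6.17 ± 0.94 h in TRF. No TRF head of week 5 was kept between ZT03 and ZT12, and no ALF head at ZT06. The fitted TRF peaks of takeout and Ugt35b fall in this gap. The highest TRF heads were those of ZT03 for takeout (55.7 FPKM) and ZT12 for Ugt35b (99.6 FPKM). The test of the difference between the fitted rhythms gave an unadjusted p of 0.010 for takeout, 0.012 for Ugt35b, 0.23 for Slob and 0.23 for Lk6, with an adjusted p of 0.89 for each, and 0 of 9879 genes were called (0%). The size of this difference for Lk6 was 0.90 on the log2 scale, and 0.27 without the ALF ZT15 head. In peripheries the differences were smaller, with unadjusted p of 0.34 for takeout, 0.16 for Lk6 and 0.61 for Ugt35b, and 0 of 12001 were called (0%). Peak times there were ZT20.3 and ZT22.7 for takeout, ZT22.9 and ZT19.4 for Lk6 and ZT8.40 and ZT8.79 for Ugt35b, in ALF and TRF.

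Heads of weeks 3 and 7 under ALF showed the phases of Slob and Ugt35b again in libraries other than those of week 5. Slob was at 125, 83.2, 102 and 225 FPKM at ZT00, ZT06, ZT12 and ZT18 of week 3, and at 233, 138 and 245 FPKM at ZT00, ZT06 and ZT18 of week 7. Ugt35b was at 40.5, 148, 51.4 and 27.3 FPKM at week 3 and at 37.5, 109 and 18.4 FPKM at week 7. At both ages Slob was lowest and Ugt35b highest at ZT06, and Slob was highest and Ugt35b lowest at ZT18. Over these 7 libraries the Slob amplitude was 0.59 ± 0.12 with a peak at ZT19.3 ± 0.90 h (adjusted p = 0.74). The Ugt35b amplitude was 1.24 ± 0.13, a 5.58-fold ratio, with a peak at ZT6.59 ± 0.48 h (unadjusted p = 0.00017, adjusted p = 0.39, rank 4), and 0 of 9879 genes were called (0%). takeout had an amplitude of 0.82 ± 0.28 and a fitted peak at ZT5.93 (adjusted p = 0.82), against ZT20.4 in ALF heads of week 5 (adjusted p = 0.54). No ALF head of week 5 was kept at ZT06, and the difference between these 2 peaks was not tested. Lk6 had an amplitude of 0.42 ± 0.16 and a peak at ZT4.40, against ZT2.96 in ALF heads of week 5. The Lk6 amplitude in those week 5 heads was 0.97, and 0.33 without the ALF ZT15 head.

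**Figure D5:**
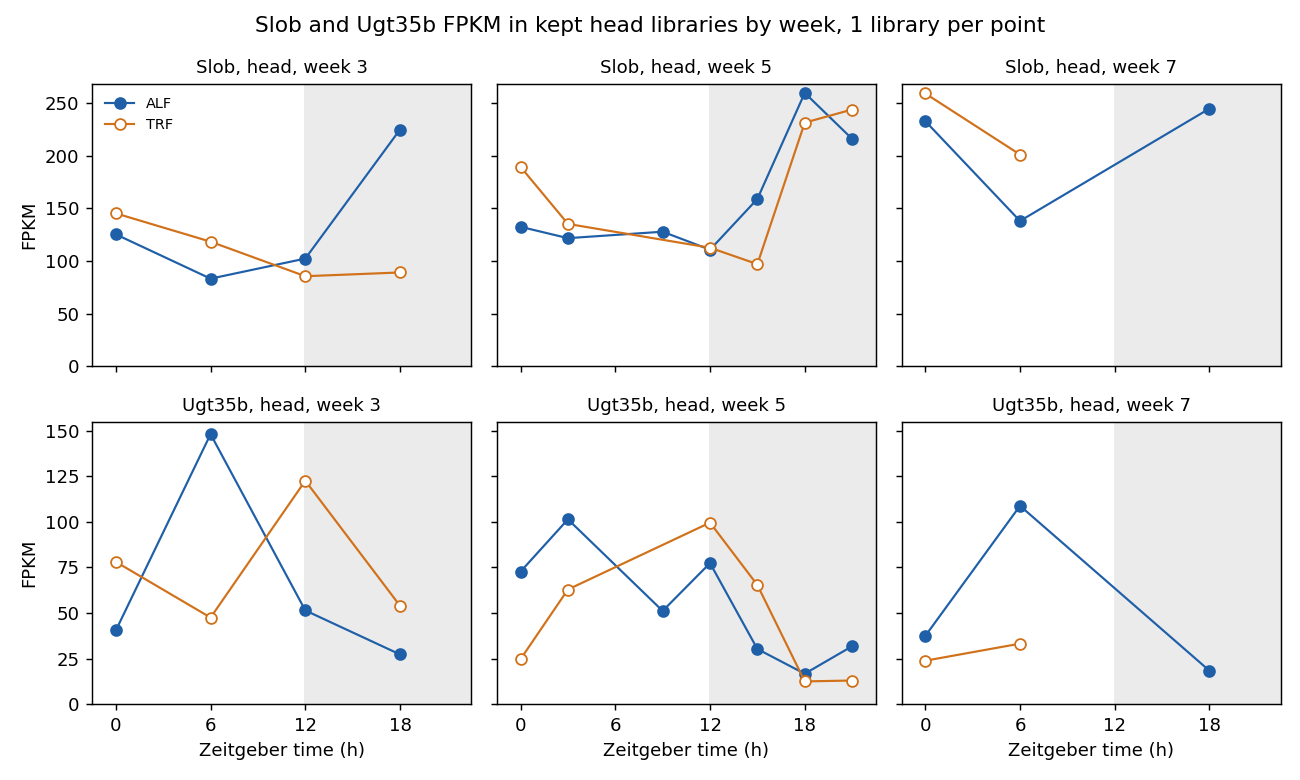
FPKM of Slob (top) and Ugt35b (bottom) by zeitgeber time (h) in kept heads of weeks 3, 5 and 7, 1 library per point, with ALF filled and TRF open, and ZT12 onwards shaded. Under ALF, Slob is lowest and Ugt35b highest at ZT06 of weeks 3 and 7, whereas the TRF heads of week 3 have Slob highest at ZT00 (145 FPKM) and Ugt35b at ZT12 (123 FPKM).

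TRF heads of week 3 followed another order. Slob was at 145, 118, 85.5 and 89.1 FPKM and Ugt35b at 78.1, 47.5, 123 and 54.0 FPKM at ZT00, ZT06, ZT12 and ZT18. per was highest at ZT18 in ALF heads of week 3 (51.8 FPKM) and at ZT00 in TRF heads (32.2 FPKM), and tim likewise (151 and 52.6 FPKM). Whether the ZT labels of these TRF libraries match the time of sampling was not tested. The TRF ZT12 head was the shallowest library, and its takeout level of 170 FPKM, the highest of the kept heads, rested on 37 reads, counted by the smallest step of its FPKM values.

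takeout in heads spanned 15.1 to 170 FPKM over all weeks, and Ugt35b a like range of 12.5 to 148 FPKM. In ALF heads takeout was at 16.9, 85.2, 21.0 and 24.1 FPKM at ZT00, ZT06, ZT12 and ZT18 of week 3 and at 82.3, 97.4 and 33.9 FPKM at ZT00, ZT06 and ZT18 of week 7. In TRF heads it was at 44.1, 23.97, 170 and 21.3 FPKM at week 3 and at 15.1 and 102 FPKM at ZT00 and ZT06 of week 7. The ALF heads of weeks 3 and 7 had their highest takeout level at ZT06, a time with no kept ALF head at week 5. In peripheries of weeks 3 and 7 takeout was at 30.8 to 70.1 FPKM. Over the 6 ALF peripheries of these weeks the amplitudes were 0.47 for takeout, 0.43 for Lk6 and 0.06 for Ugt35b, and none was among the 94 genes called (0.783%). Their fitted peaks were ZT1.11, ZT4.83 and ZT11.4, against ZT20.3, ZT22.9 and ZT8.40 in ALF peripheries of week 5. These 6 libraries cover only ZT06, ZT12 and ZT18, so the 24 h terms take up any difference between these times.

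Slob levels in heads were higher at weeks 5 and 7 than at week 3, without passing the adjusted test. The 8 heads of week 3 had a lowest, median and highest Slob level of 83.2, 110 and 225 FPKM, and the 5 heads of week 7 were at 138 to 259 FPKM with a median of 233 FPKM. The groups overlapped. With labelled ZT and feeding held equal, week 7 exceeded week 3 by 0.73 ± 0.17 (95% interval 0.36 to 1.09, unadjusted p = 0.00099, adjusted p = 0.999, rank 6 of 9879) and week 5 exceeded week 3 by 0.43 ± 0.16 (adjusted p = 0.33). The ZT labels of the TRF heads of weeks 3 and 7 were not tested. Mean per and tim levels in heads were also higher at week 7 (55.1 and 179 FPKM) than at week 3 (21.7 and 49.8 FPKM), over unlike sets of ZT. For week 7 against week 3, 0 of 9879 genes were called in heads (0%) and 325 had an unadjusted p below 0.05, and for week 5 against week 3, 5 were called (0.0506%), 4 of them higher (0.0405%). Ugt35b differed by -0.68 ± 0.33 (adjusted p = 0.999), takeout by 0.48 ± 0.50 and Lk6 by -0.13 ± 0.15 between weeks 7 and 3. In peripheries 402 of 12001 genes (3.35%) were called for week 5 against week 3, 3.11% of all genes higher and 0.242% lower. For week 7 against week 3, 887 (7.39%) were called, 6.22% higher and 1.17% lower. None of the 3 output genes tested was among them. The labels give no batch, so age and the batch of a week cannot be told apart.

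In hearts Lk6 had the smallest p of the 4 genes for a rhythm. It was at 261, 230, 183 and 223 FPKM at ZT00, ZT06, ZT12 and ZT18 in ALF hearts and at 298, 279, 184 and 195 FPKM in TRF hearts. In both groups ZT00 was highest and ZT12 lowest. The amplitude was 0.33 ± 0.08 with a peak at ZT1.65 ± 0.90 h (unadjusted p = 0.014, adjusted p = 0.38), and 0 of 9726 genes were called (0%). Slob was lower in TRF than in ALF hearts in all 4 pairs (-0.36 ± 0.20, adjusted p = 0.71), at levels below 2 FPKM. The photoreceptor gene ninaE was also lower in TRF hearts in all 4 pairs, at 20.8 to 56.0 FPKM against 50.3 to 86.3 FPKM in ALF hearts. The part of head RNA in these Slob levels was not tested. For takeout the TRF difference of -1.67 ± 0.96 became 0.09 without the 2 hearts that held tubule markers.

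Partners of the output genes were measured in the same libraries. Of 6 Slob partners, 5 were higher in the head than in the periphery, as 33.5% of all genes were, with a median difference of 1.14 against -0.08 over all genes tested. They included slo, the Slowpoke channel itself (1.69 ± 0.24, adjusted p = 9.92e-06), the channel gene eag (2.64 ± 0.10, adjusted p = 7.99e-13) and the kinase gene CaMKII (1.44 ± 0.11, adjusted p = 9.05e-09). Of 7 Lk6 partners, 1 was higher in the head and 1 lower, where 42% of all genes were lower. The lower one was Thor, the eIF4E-binding protein (-1.11 ± 0.36, adjusted p = 0.011), and the higher one was the kinase gene Tor (0.28 ± 0.10, adjusted p = 0.019). Of 21 takeout family genes tested, 10 were higher and 10 lower in the head, CG2016 by 5.92 and CG8997 by -8.55 among them, and 5 of 10 UDP-glycosyltransferases were lower and 0 higher. The shares of lower members in these families lie near the 42% of all genes.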

How the data were processed

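RNA of 72 libraries was measured as unstranded polyA+ RNA-seq, per the labels' protocols. The authors deposited FPKM for 29260 RefSeq transcripts. The tools listed are STAR 2.2.0c, HOMER and CASAVA 1.8.2, and the build is dm3, per the submitters' processing notes. What each tool did is not given in the sources used here. Of 15240 genes, 5900 had several transcripts, and the one with the highest mean FPKM was used. Low values fell on steps of whole reads (100% within 0.05 reads), which gave each library's depth. Reads over repeats or shared exons can count for several transcripts.

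Values of log2(FPKM + 1) were fitted with limma (version 3.58.1, R 4.3.3) and tested two-sided with a trended prior variance. The added 1 understates changes of low genes. A gene entered a tissue's fit where its mean there reached 1 FPKM. Benjamini-Hochberg adjustment ran over all genes tested, with a threshold of 0.05. ALF and TRF libraries of the same ZT were paired by a ZT block, since each pair shares its labelled time. Rhythms were F tests of 24 h cosine and sine terms, with feeding as a covariate. The fits were tested on simulated data. Python 3.11.15 and matplotlib 3.10.9 were used for the rest.

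The members, gene lists and tests were chosen with earlier results of these data known. Named are the 4 genes, the 3 genes most correlated with each, listed genes past the threshold (at most 5 a list), clock genes and neighbours as a scale, and the tissue markers. The core clock genes other than tim, the neighbours and Pdh were named for comparison although they did not pass. Alternatives were pseudocounts of 0.1 and 5, no filter and a minimum of 5 FPKM, median-of-ratios and quantile scaling, robust variances, sums over transcripts, no pairing, ALF only for age, all libraries as labelled, and leaving out each ZT or the libraries that stood apart.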

Additional observations from a re-analysis of the deposited data

Results flagged for a closer look

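Of 32 sets of 4 to 8 libraries of 1 gene and group, 7 held a library whose gap to the nearest of the others was large for the range of the group. The cut-offs are passed about 1 in 20 times by replicate draws from 1 normal distribution. Here the libraries of a set differ in ZT and the sets share libraries, so the 7 flags cannot be set against that rate. takeout was at 85.2 FPKM in the ALF ZT06 head of week 3 (nearest 24.1 FPKM), at 170 FPKM in the TRF ZT12 head of week 3 (nearest 44.1 FPKM) and at 83.8 FPKM in the ALF ZT21 head of week 5 (nearest 47.7 FPKM). takeout was also at 59.6 FPKM in the ALF ZT00 heart (nearest 3.93 FPKM). Lk6 was at 62.8 FPKM in the ALF ZT15 head of week 5 (nearest 362 FPKM). That library had a correlation of 0.846 with the median of the other week 5 heads, against 0.968 to 0.991 for the other 12. Ugt35b was at 32.04 FPKM in the ALF ZT00 heart and at 25.2 FPKM in the TRF ZT12 heart (nearest 1.24 and 1.26 FPKM), the 2 hearts with tubule markers.

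Lk6 was higher under TRF in 2 of 2 pairs of the periphery at week 7 and lower in 2 of 2 pairs of the head at week 7. This difference between tissues was not tested.

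Slob was at a median of 204 FPKM (99.8 to 230 FPKM) in the 6 libraries labelled periphery that were left out for their ninaE level, and at 0.72 to 0.975 FPKM in the 6 left out from the heads. Kept peripheries had at most 1.12 FPKM and kept heads at least 83.2 FPKM, so Slob went with ninaE and against the label in all 12.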

How the results depend on the processing

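Of 1579 recomputed values of the 4 genes, 1506 kept their direction and side of the threshold, and all 64 reversals concerned differences that had not passed. Slob in head against periphery stayed between 4.85 and 7.44. takeout and Ugt35b were called in heart against periphery, and all 4 genes in heart against head, in 15 of 15 alternatives. Lk6 in heart against periphery was called in 14 of 15, the exception being the median of ratios (-0.07), which moved the median of all genes there from -0.59 to -0.20. Lk6 in head against periphery, not called in the report, passed in 4 of 14 alternatives (up to 0.59 with quantile scaling, adjusted p = 0.00095), and Slob in heart against periphery in 3 of 15 (up to 1.46). The cause of the other changes was not tested unless fewer libraries or other genes entered.

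With all libraries as labelled, which mixes tissues, genes called numbered 3 (TRF, head week 3) and 0 (TRF, periphery week 7, age in heads at week 5, age in peripheries, and the ALF rhythm in peripheries of weeks 3 and 7, which had 94). The Slob differences in heads became -1.58 (TRF, week 7), -1.11 (week 5 against 3) and -1.72 (week 7 against 3). In peripheries Lk6 became -0.42 (TRF, week 3), 0.11 and 0.059 (weeks 5 and 7 against 3) and Ugt35b -0.20 (TRF, week 3) and 0.17 (week 5 against 3), and the Lk6 rhythm of TRF heads had an amplitude of 0.25 at an opposed time.

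For week 5 against 3 in heads, 5 genes became 0 (pseudocount 0.1, minimum 5 FPKM or ALF only), 2 (pseudocount 5), 21 (no filter), 9 (quantile) and 1 (sums over transcripts). For week 5 against 3 in peripheries, 402 became 232 (median of ratios), 218 (quantile) and 0 (ALF only), and 887 for week 7 became 0 (ALF only). TRF against ALF gave 2 genes (head week 3) and 1 (periphery week 3) with pseudocount 0.1, 1 (head week 7) with pseudocount 5, and 14 (head week 7), 1 (periphery week 3) and 12 (periphery week 7) with no filter. The share of calls that were higher moved, with median of ratios and quantile scaling, from 80% to 66.7% and 11.1% (week 5 against 3, heads) and from 84.1% to 61.2% and 64.9% (week 7 against 3, peripheries), and from 70% to 88.2% with median of ratios (TRF, periphery week 7). The 30 rhythms of peripheries became 14 with no filter, and the 94 of ALF peripheries 0 (no filter), 18 (median of ratios), 57 (quantile) and 142 (robust variance).

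Small differences changed sign: with pseudocount 0.1, Ugt35b in TRF peripheries of week 5 (-9.73e-05); with the median of ratios, takeout (0.025) and Ugt35b (0.0043) in peripheries of week 7; with quantile scaling, Slob in heads of week 5 (0.076), takeout in peripheries of weeks 3 (0.030) and 7 (0.020), Ugt35b in hearts (0.048) and in head against periphery (0.20); with sums over transcripts, Slob in heads of week 5 (0.014). With ALF only, Ugt35b for week 5 against 3 in heads was 0.22, and takeout in peripheries 0.090 and 0.093 for weeks 5 and 7. Without the 2 hearts with tubule markers, TRF differences were 0.089 (takeout) and 0.083 (Ugt35b) and the amplitudes 0.87 and 0.071.

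Without the replicate block for ZT (no pairing), 4 genes were called for TRF in heads of week 3, 2 in peripheries of week 7, 17 and 1 for weeks 5 and 7 against 3 in heads, and 848 for week 5 in peripheries. Slob in heads of week 5 was then 0.043, takeout for week 5 against 3 in heads -0.046 and Lk6 for TRF in peripheries of week 3 -0.097.

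Leaving out each ZT in turn, or the ALF ZT15 head, counts ranged from 0 to 5 (rhythm in heads), 0 to 20 (ALF heads, 20 without ZT15), 0 to 171 (peripheries), 0 to 3 (ALF), 0 to 357 (TRF) and 0 to 2 (difference). For TRF they ranged from 0 to 3, 0 to 1 (head weeks 3 and 7), 0 to 1 and 0 to 25 (periphery weeks 3 and 7), and for age from 0 to 4 and 0 to 1 (heads) and 0 to 404 and 1 to 886 (peripheries). The lowest counts came without ZT18 (week 5 against 3 in heads, week 7 against 3 in peripheries), without ZT12 or ZT18 (TRF at week 7 and week 5 against 3 in peripheries) and without ZT09 or ZT12 (rhythm in peripheries). Without ZT06 the Lk6 rhythm of TRF peripheries passed (0.56). TRF differences in heads ranged, for takeout, from -0.21 to 1.38 (week 3) and -2.37 to 0.068 (week 7), for Slob from -0.46 to 0.15 (week 3), -0.10 to 0.14 (week 5) and -0.44 to 0.0044 (ZT15 to ZT21), for Lk6 from -0.27 to 0.22 (week 3) and -0.037 to 0.52 (week 5, below 0 without ZT15), and for Ugt35b from -0.81 to 0.35 (ZT15 to ZT21). In peripheries they ranged, for takeout, from -0.23 to 0.19 (week 3), -0.35 to 0.25 (week 7) and -0.47 to 0.033 (late minus early times), for Lk6 from -0.059 to 0.58 (week 3), and for Ugt35b from -0.17 to 1.22 (week 3), -0.073 to 0.11 (week 5), -0.15 to 0.013 (week 7) and -0.53 to 0.10 (late minus early). Age differences ranged from -0.17 to 0.55 (takeout, heads), -0.39 to 0.12 and -0.23 to 0.19 (takeout, peripheries, weeks 5 and 7) and -0.54 to 0.090 (Lk6, peripheries). Ugt35b ranged from -1.26 to 1.24 (TRF, hearts) and -0.69 to 0.092 (head against periphery), its heart amplitude from 1.81 to 1.95, that of takeout from 0.78 to 2.65, and that of Lk6 in TRF heads from 0.060 to 0.22. Without ZT06, ZT12 or ZT18 the ALF rhythm of peripheries at weeks 3 and 7 could not be fitted.

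Depth was lowest in heads of weeks 3 and 7, where 1 library held 0.210 M reads, and few pairs were complete outside week 5 (2 in heads of week 7 and in peripheries of weeks 3 and 7).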
